A study of Mus musculus with 13 samples.

Results

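The Tlx and Lbx genes encode homeodomain transcription factors, and the places where the histone mark H3K27me3 was called around them were compared between mouse embryonic fibroblasts expressing H3.3K27M and fibroblasts expressing H3.1K27M. The loci were defined as 3 windows of the mouse build mm9: 44.95 to 45.35 Mb of chromosome 19 for Tlx1 and Lbx1, 82.98 to 83.08 Mb of chromosome 6 for Tlx2 and Lbx2, and 33.05 to 33.15 Mb of chromosome 11 for Tlx3. They were chosen by the position of H3K27me3 peaks in these same data, so that peaks lie in the windows is no finding. Every peak overlapping a window by at least 1 bp was taken, which gave 6 of the 1192 peaks of the H3.3K27M list and 5 of the 1053 peaks of the H3.1K27M list. Joined by overlap, they formed 6 of the 1383 regions of both lists, with 4 regions in the Tlx1 and Lbx1 window and 1 in each of the other windows.

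Both groups are fibroblast cultures transduced with lentivirus for stable expression of a mutant histone H3 in which lysine 27 is changed to methionine. The mutation is carried by H3.3, the form deposited throughout the cell cycle, in H3.3K27M cells, and by H3.1, the form deposited mainly with DNA replication, in H3.1K27M cells. Each group has 2 replicate H3K27me3 immunoprecipitations in the labels, 1 deposited peak list named for both, and therefore no spread between replicates. The other samples of the series (13 samples in 11 groups in all) were not analysed here. The labels do not give the promoter of the transgene, the number of clones, or the amount of mutant histone per cell, and peak lists hold no expression by which the labelled cell type could be checked.

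H3K27me3 is placed by the Polycomb repressive complex PRC2, whose catalytic subunit is EZH2, and it marks genes of transcription factors of other lineages that a cell keeps silent. H3 with methionine at position 27 inhibits PRC2 and lowers the mark over much of the genome, while it persists at CpG-rich Polycomb target sites. The Tlx and Lbx genes belong to the NK-like homeobox family and act in neural, muscle and visceral organ development, and genes of this kind are known Polycomb targets in cells that do not use them. In the mouse, Tlx1 is required for the spleen, Tlx2 acts in the enteric nervous system, and Tlx3 is required for excitatory neurons of the dorsal spinal cord and for brainstem control of breathing. Lbx1 is required for muscle precursors migrating into the limb and for dorsal spinal cord interneurons. For Lbx2 no role is stated here. TLX1 and TLX3 are also known in human as oncogenes of T-cell leukaemia.

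The gene order at these loci, taken from RefSeq for the later assembly GRCm38.p6 and used only for neighbourhood, pairs a Tlx gene with an Lbx gene at 2 of the 3 windows. Tlx1 and Lbx1 are direct neighbours in that annotation. Between Tlx2 and Lbx2 lies a single gene, Pcgf1, which itself encodes a Polycomb protein, a subunit of a variant PRC1 complex. On the other side of Tlx2 come Dqx1, Aup1 and Htra2. Tlx3 has no Lbx gene beside it, and its nearest protein-coding neighbours are Npm1, the nucleophosmin gene, and Ranbp17. Positions were not carried over between builds, so a peak is given by its window and not assigned to one gene of a pair.

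The mark had a different layout at each window. At Tlx1 and Lbx1 it was called in several separate blocks, among them some of the broadest of either list. The Tlx2 and Lbx2 window and the Tlx3 window each held 1 peak per list. All of these places except 1 were called in both mutants. Widths below are given in the 200 bp steps on which the peaks of both lists were drawn, so a difference of 0.2 kb is the smallest that could be seen.

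**Figure D1:**
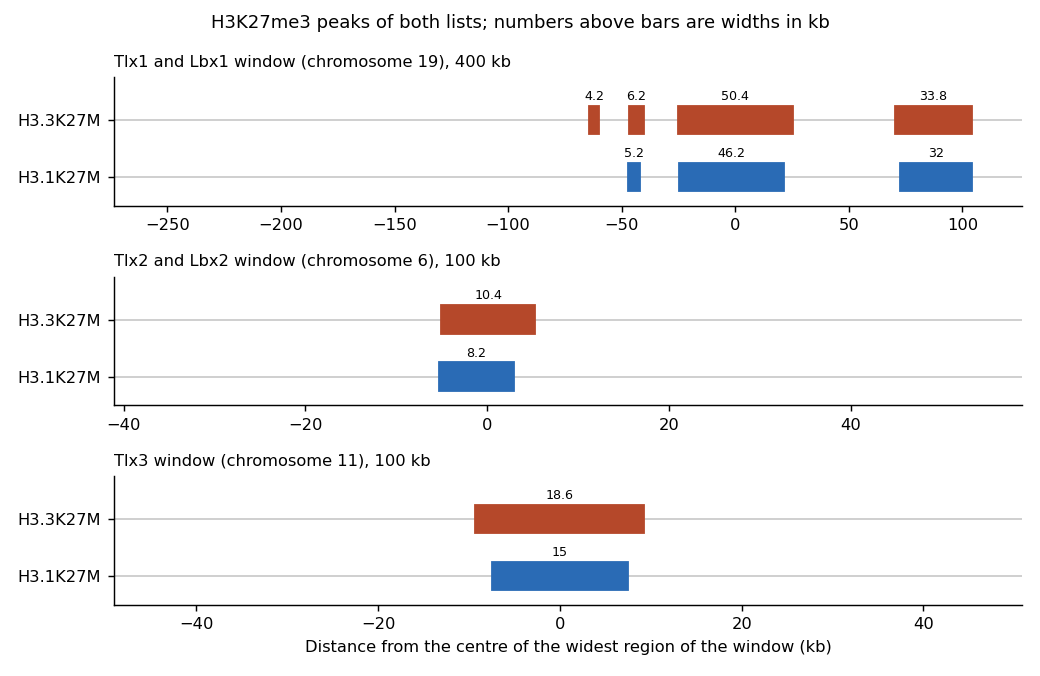
H3K27me3 peaks of the 3 windows as bars, H3.3K27M above H3.1K27M, against distance in kb from the centre of the widest region of each window, with grey lines spanning the window and widths in kb above the bars. The Tlx1 and Lbx1 window (400 kb) holds 4 H3.3K27M peaks and 3 H3.1K27M peaks, and each of the other windows (100 kb) holds 1 peak per list.

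In the Tlx1 and Lbx1 window the broadest block was a peak of 50.4 kb in H3.3K27M cells (chr19:45198401-45248799) and of 46.2 kb in H3.1K27M cells (chr19:45199001-45245199). It ranked 8th of 1192 by width in the H3.3K27M list and 5th of 1053 in the H3.1K27M list. The H3.1K27M peak lay wholly within the H3.3K27M peak, which reached 0.6 kb further on the left and 3.6 kb further on the right.

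The other broad block of this window measured 33.8 kb in H3.3K27M cells (chr19:45293801-45327599) and 32.0 kb in H3.1K27M cells (chr19:45296001-45327999). These widths ranked 38th in the H3.3K27M list and 22nd in the H3.1K27M list. Here the added length in H3.3K27M cells was on the left, by 2.2 kb, while on the right the H3.1K27M peak reached 0.4 kb further. The H3.3K27M width exceeded the H3.1K27M width by 1.8 kb, a ratio of 1.06. This block was the most even of the 5 shared regions.

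A smaller block before the broad ones was 6.2 kb wide in H3.3K27M cells (chr19:45177001-45183199) and 5.2 kb in H3.1K27M cells (chr19:45176401-45181599). Both of its edges were shifted the same way, the H3.3K27M peak starting 0.6 kb later and ending 1.6 kb later. The overlap of 4.6 kb made up 74.2% of the H3.3K27M peak and 88.5% of the H3.1K27M peak, the lowest share of the H3.1K27M peak among the 5 shared regions.

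The 1 region without a counterpart was an H3.3K27M peak of 4.2 kb (chr19:45159401-45163599), the outermost and narrowest of the window, with no H3.1K27M peak. It lay 13.4 kb before the next H3.3K27M peak and 12.8 kb from the nearest H3.1K27M peak. Over the 354 H3.3K27M peaks without a partner the median width was 5.0 kb and 34.2% were narrower than this one. Their median distance to the nearest H3.1K27M peak was 531.3 kb, and 17 of them (4.8%) lay nearer to one than 12.8 kb. The depth behind the lists is unknown, so the lack of an H3.1K27M peak is not shown to be a lack of the mark.

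Taken from the first to the last peak, the mark spanned 168.2 kb at Tlx1 and Lbx1 in H3.3K27M cells and 151.6 kb in H3.1K27M cells. The longer H3.3K27M span came from the peak without a counterpart and the gap of 13.4 kb after it. Between the outer limits of the shared blocks the spans were nearly the same, 150.6 kb in H3.3K27M cells against 151.6 kb in H3.1K27M cells. Within these limits the peaks covered 60.0% in H3.3K27M cells and 55.0% in H3.1K27M cells. The gaps were accordingly shorter in H3.3K27M cells: 15.2 kb against 17.4 kb in H3.1K27M cells between the small block and the broadest block, and 45.0 kb against 50.8 kb in H3.1K27M cells between the broad blocks. No gap was closed in either list. The running peak numbers of both lists were continuous through the 3 windows and to the next peak on either side, so no number was left unused there.

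At Tlx2 and Lbx2 a single peak measured 10.4 kb in H3.3K27M cells (chr6:83016001-83026399) and 8.2 kb in H3.1K27M cells (chr6:83015801-83023999). The left edges differed by 0.2 kb, the smallest step, with the H3.1K27M peak reaching further, and the right edge lay 2.4 kb further out in H3.3K27M cells. The width ratio of 1.27 was the highest of the 5 shared regions, and it came from the right edge alone. Of the 807 shared regions with 1 peak of each list, 17.8% had an H3.3K27M right edge at least that far beyond the H3.1K27M one. The next peaks were 541.2 kb further on in the H3.3K27M list and 617.2 kb in the H3.1K27M list. These gaps were shorter than the median gap between neighbouring peaks, 693.3 kb in the H3.3K27M list and 668.0 kb in the H3.1K27M list. The peaks before it ended 5819.2 kb away in the H3.3K27M list and 5820.4 kb away in the H3.1K27M list.

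At Tlx3 the peak was 18.6 kb wide in H3.3K27M cells (chr11:33089801-33108399) and 15.0 kb in H3.1K27M cells (chr11:33091601-33106599). It was the only symmetric case, with the H3.3K27M peak reaching 1.8 kb further on each side. By width 87.8% of the H3.3K27M list and 86.0% of the H3.1K27M list were narrower. This peak stood alone over long distances: the peak before it ended 4604.4 kb away in the H3.3K27M list and 4606.6 kb away in the H3.1K27M list. After it the H3.3K27M list had no peak for 16311 kb, while the H3.1K27M list had its next one after 2503.6 kb, a peak of 2.6 kb without an H3.3K27M partner.

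**Figure D2:**
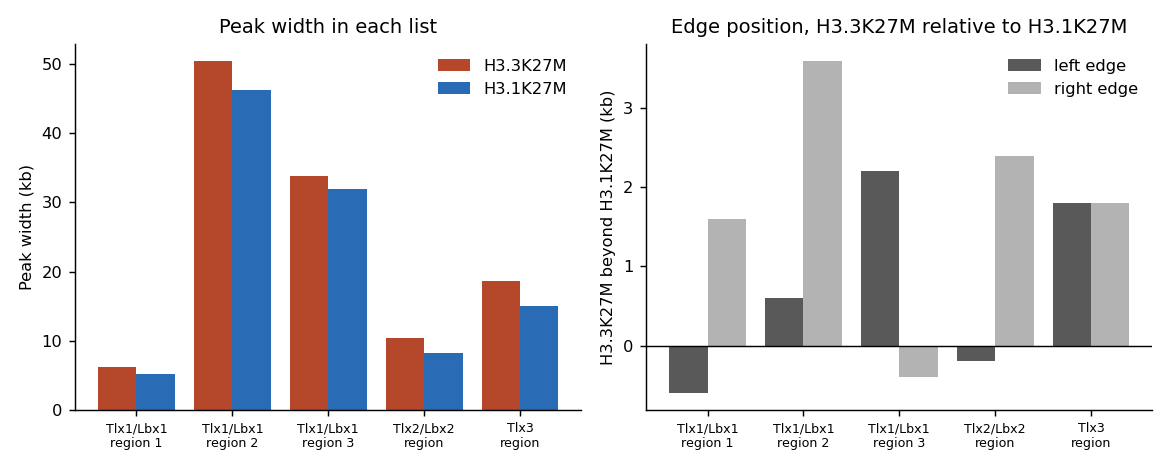
Left, peak width in kb in H3.3K27M cells (red) and H3.1K27M cells (blue) for the 5 shared regions, with the Tlx1 and Lbx1 regions numbered by position. Right, extension in kb of H3.3K27M relative to H3.1K27M at the left (dark) and right (light) edge, where values below 0 mean a longer reach in H3.1K27M cells; widths were larger in H3.3K27M cells in 5 of 5 regions and edges were further out in 7 of 10.

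Counted together, 5 of the 6 H3.3K27M peaks (83.3%, exact 95% binomial interval 35.9 to 99.6%) overlapped an H3.1K27M peak, against 70.3% over the whole H3.3K27M list. All 5 H3.1K27M peaks (100%, interval 47.8 to 100%) overlapped an H3.3K27M peak, against 81.2% over the whole H3.1K27M list. Both counts rest on the same 5 overlaps, seen from each list. The intervals cover counting error only and hold the whole-list shares. From 5 or 6 peaks they are too wide to decide whether the Tlx and Lbx peaks differ from the lists. The windows were chosen with the peaks of both lists known, and the counts are a description.

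The H3.3K27M peak was the wider one in 5 of the 5 shared regions (interval 47.8 to 100%), against 77.4% of the 831 shared regions of the lists. An interval from 5 regions is too wide to decide whether they differ from that share. H3.3K27M extended past H3.1K27M on both sides in 2 of these 5 (40.0%, interval 5.3 to 85.3%), the broadest block at Tlx1 and Lbx1 and the Tlx3 peak, against 61.3% of the 807 shared regions with 1 peak of each list. By single edges, H3.3K27M reached further at 7 of 10 (70.0%), against 74.3% in those 807 regions. No interval is given for edges, since the left and right edges of a region are not independent. In length the members added 4.2 kb at the broadest block, 3.6 kb at Tlx3, 2.2 kb at Tlx2 and Lbx2, 1.8 kb at the other broad block and 1.0 kb at the small block. The median over the 807 regions was 1.8 kb (quartiles 0.2 and 3.6 kb), so 4 of the 5 members lay within these quartiles or on the upper one, and the broadest block lay above.

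The log2 width ratio, H3.3K27M over H3.1K27M, was 0.34 at Tlx2 and Lbx2, 0.31 at Tlx3, 0.25 at the small block of the Tlx1 and Lbx1 window, 0.13 at its broadest block and 0.08 at its other broad block. All 5 lay within the quartiles of the 831 shared regions (0.04 and 0.66, median 0.33). Between 28.2% and 51.9% of the shared regions had a lower ratio than these members. The broad blocks had the lowest ratios of the 5. Among the 42 shared regions with a mean covered length of at least 30 kb, a limit set after the values were seen, the median was 0.20 (quartiles -0.03 and 0.36) and H3.3K27M covered more in 31. With 1 list per group none of these differences has a replicate check, and no test was made.

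**Figure D3:**
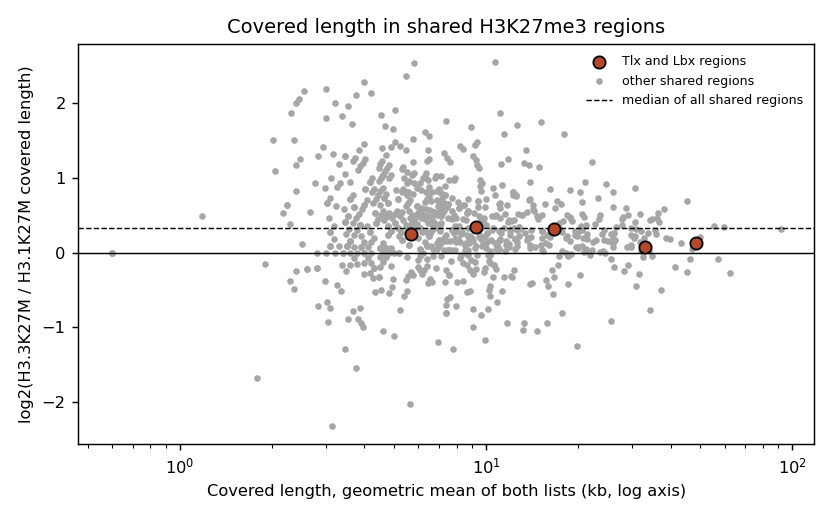
Each point is 1 of the 831 H3K27me3 regions shared by both lists; the x axis (log) is the geometric mean of the covered lengths in kb, the y axis the log2 of the H3.3K27M length over the H3.1K27M length, and the dashed line the median of all shared regions (0.33). The 5 Tlx and Lbx regions (red) lie between 0.08 and 0.34, below the dashed line except at Tlx2 and Lbx2, which is just above it.

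Summed over the 3 windows, peaks covered 123.6 kb in H3.3K27M cells and 106.6 kb in H3.1K27M cells, a ratio of 1.16, or 0.21 on the log2 scale. For the whole lists the log2 ratio of covered length was 0.44 (11.87 Mb in H3.3K27M and 8.75 Mb in H3.1K27M cells). The Tlx1 and Lbx1 window held most of the length in the 3 windows, with 94.6 kb in H3.3K27M cells and 83.4 kb in H3.1K27M cells. With each window widened by 50 kb on both sides, a setting added after the data were seen, the length inside the windows was 160.2 kb in H3.3K27M cells and 141.2 kb in H3.1K27M cells. Nearest outside the Tlx1 and Lbx1 window was a shared peak after it, 17.2 kb wide and 16.4 kb from its end in H3.3K27M cells and 14.6 kb wide and 16.6 kb from its end in H3.1K27M cells. Before it, 2 H3.3K27M peaks of 41.2 kb in all faced an H3.1K27M peak of 49.4 kb. As drawn, the 3 windows took up a slightly smaller part of the H3.3K27M list, 1.04% of its covered length, than of the H3.1K27M list, 1.22%.

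As a share of the window, the mark covered 23.6% in H3.3K27M cells and 20.9% in H3.1K27M cells at Tlx1 and Lbx1. It covered 18.6% in H3.3K27M and 15.0% in H3.1K27M cells at Tlx3, and 10.4% in H3.3K27M and 8.2% in H3.1K27M cells at Tlx2 and Lbx2. The order of the windows was the same in both mutants. Over the genome peaks covered 0.45% in H3.3K27M cells and 0.331% in H3.1K27M cells. Chromosome 19 as a whole stood at 1.23% in H3.3K27M and 0.889% in H3.1K27M cells. Of all sequence covered on it, 751.9 kb in H3.3K27M and 545.2 kb in H3.1K27M cells, the Tlx1 and Lbx1 window held 94.6 kb in H3.3K27M and 83.4 kb in H3.1K27M cells. The windows were drawn around peaks, and these shares describe them only.

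CpG-rich sequence at gene starts is where PRC2 is typically found in mammals, so the bases before the start of the member genes are shown for those that the RefSeq promoter table (GRCm38.p6) holds, Tlx1 on chromosome 19 and Tlx3 on chromosome 11. Tlx2, Lbx1 and Lbx2 are named only. Each run is the 250 bases before the start on the gene's own strand, with CG dinucleotides in capitals. Whether these bases lie inside the mm9 peaks was not determined.
Tlx1: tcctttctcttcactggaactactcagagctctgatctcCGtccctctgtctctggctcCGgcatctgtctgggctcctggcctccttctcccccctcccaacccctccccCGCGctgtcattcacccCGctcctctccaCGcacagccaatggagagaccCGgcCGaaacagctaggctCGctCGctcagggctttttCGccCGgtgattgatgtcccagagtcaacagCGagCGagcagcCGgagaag
Tlx3: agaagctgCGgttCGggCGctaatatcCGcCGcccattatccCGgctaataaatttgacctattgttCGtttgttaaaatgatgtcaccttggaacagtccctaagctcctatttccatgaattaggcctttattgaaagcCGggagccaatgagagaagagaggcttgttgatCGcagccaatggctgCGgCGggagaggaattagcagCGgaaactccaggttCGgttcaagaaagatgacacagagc

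The Tlx1 sequence held 15 CG dinucleotides, and 72.7% of the 32851 promoters of the table held fewer. The Tlx3 sequence held 13, and 68.5% held fewer. The median over all promoters was 6 (quartiles 2 and 16). The genes reached similar counts with different base composition. The Tlx1 sequence was 62.0% G and C, with an observed to expected CG ratio of 0.68, and the Tlx3 sequence was 48.8% G and C with a ratio of 0.88. The ratio was higher than in 71.4% of promoters for Tlx1 and 87.1% for Tlx3, while G and C content was higher than in 76.7% for Tlx1 and in only 36.6% for Tlx3. In the Tlx1 run the CG dinucleotides lay mostly near the start, with 13 of 15 in the last 150 bases, against 6 of 13 in the Tlx3 run.

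**Figure D4:**
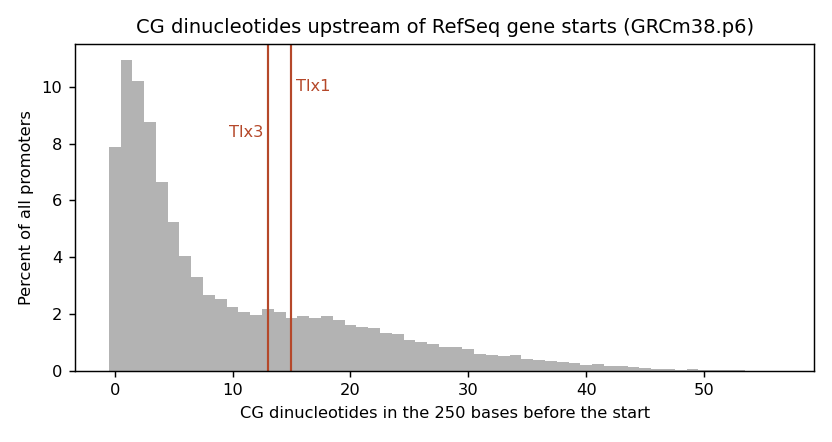
Percent of all 32851 RefSeq promoters (GRCm38.p6) by the number of CG dinucleotides in the 250 bases before the start, as grey bars, with red lines at Tlx1 (15) and Tlx3 (13). Both lie above the median of 6 and below the upper quartile of 16.

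A few short motifs were counted on both strands in the same 250 bases. CCAAT, the letters of the CCAAT box, occurred 1 time before Tlx1 and 2 times before Tlx3, and 33.8% of all promoters held it at least 1 time and 10.1% at least 2 times. TAAT, a core that many homeodomains bind, occurred 5 times before Tlx3, 2 of them in the last 150 bases, and at no place before Tlx1. Of all promoters, 54.9% held it at least 1 time and 30.4% at least 2 times. The share with 5 or more was not counted. TATAA, which can share letters with TAAT, was in neither, and 22.8% of promoters held it. These matches describe the letters only. Of 41 NK-like homeobox genes listed for comparison, Tlx1 and Tlx3 included, 32 had a promoter in the table. Where a gene had several, the one with the most CG dinucleotides was taken. Of these 32 genes, 31 held more CG dinucleotides than the median promoter, against 46.3% of all promoters. The 46.3% counts every promoter singly, with no highest one taken per gene, so the shares are not counted alike. The counts of the 32 genes ran from 5 at Noto to 40 at Barx1 with a median of 18.5. Among the 30 others, 18 exceeded Tlx1 and 20 exceeded Tlx3 by this count. By the observed to expected CG ratio, taken separately as the highest of each gene, 19 exceeded Tlx1 and 10 exceeded Tlx3. Tlx1 and Tlx3 each had 1 promoter in the table, so taking the highest value of genes with several could raise these counts.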

How the data were processed

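H3K27me3 chromatin immunoprecipitation libraries of mouse embryonic fibroblasts were analysed as deposited peak lists, 1 for H3.3K27M and 1 for H3.1K27M. The submitters' processing notes name the build mm9, the aligner Bowtie 1.0.0 and deepTools. How peaks were called, with which threshold and input, and whether replicates were pooled is not stated in those notes or the labels. Position and width are all that the deposited lists hold, on a 200 bp grid, without height or p-value, and depth is unknown. Deeper libraries or looser thresholds give more and wider peaks, so widths were not read as amounts of the mark.

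The 3 windows, 5 genes and the family list were chosen with earlier results of these data known, and the text names those genes and their neighbours up to 3 genes away. Peaks overlapping by at least 1 bp were joined into regions. Positions are printed with the first base as 1. Widths were compared as log2 of H3.3K27M over H3.1K27M. Exact (Clopper-Pearson) 95% intervals treat peaks as independent, which peaks of the same window may not be. No test was made, since each group has 1 list. Joining and ratios were tested on simulated data. Tools were Python 3.11.15, numpy 2.4.6, pandas 2.3.3, scipy 1.17.1, networkx 3.6.1, matplotlib 3.10.9, and GenomeInfoDb 1.38.1 in R 4.3.3 for mm9 chromosome lengths.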

Additional observations from a re-analysis of the deposited data

How the results depend on the processing

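No paired analysis was possible because the files hold 1 peak list per group, deposited with the first replicate and named in the label of the other, and so no replicate could be omitted either. Merging peaks under 5 kb apart, keeping only peaks at least 2 kb wide, taking only peaks wholly inside a window and clipping peaks to the window changed none of the member counts, lengths or ratios, and most of these settings could not, since all member peaks lie inside the windows, are at least 4.2 kb wide and lie at least 13.4 kb apart. A reciprocal overlap of 50% left 5 of the 6 H3.3K27M and 5 of the 5 H3.1K27M peaks with a partner, while the shares over the whole lists became 58.4% for H3.3K27M and 66.1% for H3.1K27M. With peaks of at least 2 kb the whole-list share for H3.1K27M was 84.1%. Taking the regions of a window together gave a median log2 ratio of 0.31 against 0.25. Counting CG dinucleotides in 150 bases in place of 250 put Tlx1 above 79.7% and Tlx3 above 58.6% of promoters. Widening each window by 50 kb on both sides, a setting chosen after seeing the data, added 2 peaks per list at Tlx1 and Lbx1 and gave whole-peak sums of 165.8 kb in H3.3K27M and 170.6 kb in H3.1K27M cells. This order is set by the window edge: the added H3.1K27M peak of 49.4 kb lies only partly inside, and of its 2 H3.3K27M counterparts (41.2 kb in all) only 1 reaches the widened window. Clipped to the widened windows the sums were 160.2 kb in H3.3K27M and 141.2 kb in H3.1K27M cells, and with all peaks of each region 182.0 kb in H3.3K27M and 170.6 kb in H3.1K27M cells. In the widened windows H3.3K27M covered more in 6 shared regions, with a median log2 ratio of 0.24. It covered less in the added region before the Tlx1 and Lbx1 window (log2 ratio -0.26). The unknown depth limits every statement that a peak is absent.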

Other observations

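Before the Tlx1 and Lbx1 window, chromosome 19 carried further H3K27me3. It ended 240.0 kb before the first member peak in H3.3K27M cells and 256.4 kb before it in H3.1K27M cells. The 500 kb before the first member peak were taken in each list from its own first member. In them, 8 H3.3K27M peaks covered 167.6 kb (widths 6.2 to 55.6 kb) and 5 H3.1K27M peaks covered 172.0 kb (widths 10.2 to 58.8 kb). There the H3.3K27M list had more peaks and less covered length. The window, with all its peaks counted, also had more peaks in the H3.3K27M list, 4 against 3 in the H3.1K27M list. Its covered length was larger in H3.3K27M cells, 94.6 kb against 83.4 kb in H3.1K27M cells. The stretch ended at nearly the same place in both lists, at base 44919399 of chromosome 19 in H3.3K27M and 44919999 in H3.1K27M cells (mm9). On the other side, 16.4 kb beyond the window in H3.3K27M and 16.6 kb in H3.1K27M cells, lay a shared peak of 17.2 kb in H3.3K27M and 14.6 kb in H3.1K27M cells (log2 ratio 0.24). The difference between the stretch and the window was not tested.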
